A study of Mus musculus with 12 samples.

Results

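Messenger RNA of mouse embryonic stem (ES) cells that lack GSK3 and grew in serum with LIF was set beside that of unmodified ES cells grown in the inhibitor medium 2iL, both with the solvent DMSO. The libraries were chosen by their labels alone, 2 knockout and 2 unmodified 2iL libraries, which make 4 of the 12 in the series. The comparison sets genetic loss of GSK3 against a medium that holds inhibitors of both MEK and GSK3. The knockout cells were kept in DMEM with 15% fetal bovine serum and LIF at 1000 U/ml on growth-arrested mouse embryonic fibroblasts, and were passed onto gelatin before the experiment. The 2iL cells grew on gelatin without serum, in an N2 and B27 medium with the same LIF, the MEK inhibitor PD0325901 at 1 µM and a further agent at 3 µM whose name is missing in the label. Both groups had DMSO for 60 h. Of the 8 other libraries, 2 are unmodified cells in serum/LIF with DMSO, cultured like the knockout, whose levels are given as a further point of reference, and 4 are knockout and 2iL cells with JQ1, a BET bromodomain inhibitor. The labels give neither the parental line of the knockout, nor how many clones it represents, nor which part of which GSK3 gene was removed. Genotype, medium, serum, feeder history and possibly line therefore differ together between the groups and cannot be told apart. Nothing in the labels says that the replicates of a group were separate cultures, so a p-value here reflects no more than how far apart such libraries lie, and that distance may be technical.

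GSK3 is a kinase made from a pair of genes, Gsk3a and Gsk3b. In the destruction complex with Axin and APC it phosphorylates beta-catenin and so marks it for degradation. When GSK3 is lost or inhibited, beta-catenin accumulates, joins TCF/LEF factors on DNA and relieves the repressor Tcf7l1, which in ES cells favours the naive pluripotent state. MEK is the kinase above ERK, and ERK signalling pushes ES cells out of that state. 2iL blocks both routes and holds ES cells in what is called the ground state, whereas serum/LIF leaves ERK active.

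Library totals ran from 17869865 to 48723436 expected counts over the series, with 19910573 and 18154447 in the knockout pair and 20872129 and 20436474 in the 2iL pair. Levels are CPM, counts scaled to library size with edgeR's TMM factors, given for replicate 1 and then replicate 2, and they compare libraries and not genes, since they carry no gene length. Changes are log2 fold changes, knockout minus 2iL, ± standard error, and a gene passed at an edgeR adjusted p under 0.05. That standard error was worked back from the test, as the size of the change divided by the square root of its F statistic. For genes near 0 counts it does not measure error. Mitochondrially encoded genes took 10.7% and 11.2% of the knockout counts and 6.75% and 6.41% of the 2iL counts. The ES cell markers Pou5f1, Sox2 and Sall4 were abundant in both groups, Pou5f1 at 740.1 and 836 CPM in the knockout and 959 and 762 CPM in 2iL. Fibroblast markers, by contrast, summed to 331 and 496 CPM in the knockout and to 34.9 and 28.6 CPM in 2iL, and 4 of the 10 tested (Col3a1, Postn, Dcn and Twist2) had no count in either 2iL library. The 2 unmodified serum/LIF libraries, which had the same feeder history as the knockout, summed to 1169 and 1070 CPM.

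Transcripts of both GSK3 genes were reduced but present in the libraries labelled as knockout, whose labels do not say which of them was targeted. For Gsk3a, which lies on chromosome 7, 25228258 to 25237851 (GRCm38, ENSMUSG00000057177.12), levels were 24.7 and 23.4 CPM in the knockout and 107 and 89.3 CPM in 2iL, with 76.8 and 65.1 CPM in unmodified serum/LIF. Its log2 fold change against 2iL was -2.03 ± 0.14 (adjusted p = 2.28e-07). For Gsk3b, on chromosome 16, 38089001 to 38246084 (ENSMUSG00000022812.13), they were 51.2 and 42.5, 93.7 and 105 and 74.7 and 72.2 CPM in the same order, a log2 fold change of -1.08 ± 0.13 (adjusted p = 3.34e-05). Neither gene overlapped between the groups, which held for 71.3% of all genes tested. Because the table has 1 value per gene, a missing exon cannot be seen in it and loss of the protein is unchecked. A further gene set the knockout apart from all unmodified cells. Hprt (ENSMUSG00000025630.8, chromosome X, 52988137 to 53021659), the purine salvage enzyme that is a common selection marker, had 118 and 126 CPM in the knockout, 0.505 and 0.276 CPM in 2iL and 1.996 and 1.38 CPM in unmodified serum/LIF. The lowest of the 4 knockout libraries of the series had 118.5 CPM of it and the highest 165 CPM, whereas the 8 unmodified libraries spanned 0.276 to 2.00 CPM. Among genes at 5 CPM or more in every library of one kind, it was the 1 gene that differed by at least 20-fold between every knockout and every unmodified library. The rule behind that count was chosen after Hprt's values were seen. The Y-linked genes Ddx3y (101 and 100.2 against 75.6 and 58.3 CPM) and Uty (32.4 and 26.3 against 17.1 and 17.9 CPM) were present in both groups. Autosomes had median log2 fold changes between -0.08 and 0.09.

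Across the transcriptome 7348 of 16987 tested genes passed (43.3%). Of these 3612 were higher in the knockout (21.3% of all tested) and 3736 lower (22.0%), with a median log2 fold change near 0 over all genes (-0.0025). The counts given for gene lists below are to be read against these shares. The difference reached a log2 fold change of 1 in 2056 higher (12.1%) and 1725 lower genes (10.2%). The 2 groups' libraries did not overlap in 12105 genes (71.3%). Without knockout replicate 1 the genes lower fell to 2463 and those higher to 2582. Leaving out the mitochondrially encoded genes, of which 14 of 15 were higher with a median of 0.94, gave 7276. The plot of mean level against change shows both wings and the members described below.

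**Figure D1:**
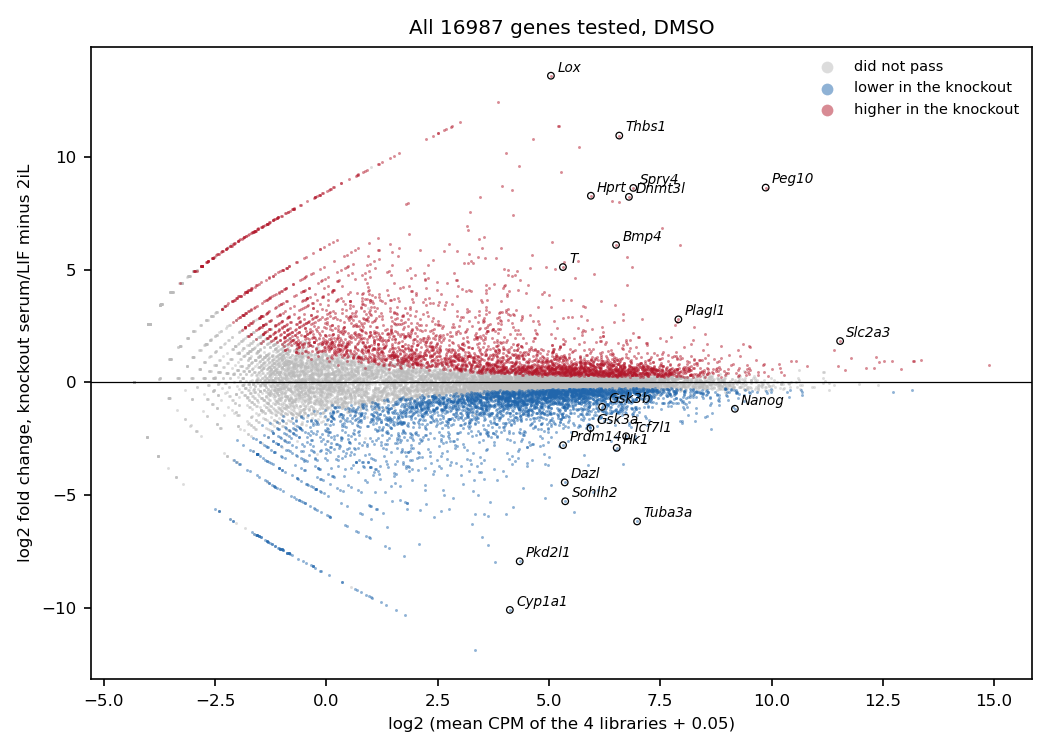
Each point is 1 of the 16987 genes tested, with the log2 of its mean CPM over the 4 compared libraries on the x axis and its log2 fold change, knockout serum/LIF minus 2iL, on the y axis; colours mark the 3612 genes higher and 3736 lower at an adjusted p under 0.05. The curved streaks at the top and bottom left are genes with few or no counts in 1 group, whose fitted values depend on the prior count and are not sizes; Spry4 (8.62), Peg10 (8.63) and Dnmt3l (8.22) lie high and Tuba3a (-6.16) low among the abundant genes.

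Members of the beta-catenin machinery moved in both directions. Of 12 tested, 5 were lower and 2 higher, with a median of -0.17, and the lower ones include Gsk3a and Gsk3b themselves. Over all genes 22.0% were lower and 21.3% higher. Tcf7l1 (ENSMUSG00000055799.13), the repressor that beta-catenin relieves, stood at 31.4 and 36.8 CPM in the knockout, 202 and 156 CPM in 2iL and 113 and 115 CPM in unmodified serum/LIF, a log2 fold change of -2.39 ± 0.15 (adjusted p = 1.41e-07). The knockout libraries were thus the lowest of the 3 settings for Tcf7l1 and 2iL the highest. Lef1, an activating partner of beta-catenin, went the other way, with 17.02 and 15.1 CPM in the knockout against 1.01 and 2.395 CPM in 2iL (3.24 ± 0.37, adjusted p = 1.88e-05, and 4.01 without 2iL replicate 2). Btrc, the ubiquitin ligase subunit that recognises phosphorylated beta-catenin, was lower (-0.64 ± 0.13, adjusted p = 0.00214). Ctnnb1, which encodes beta-catenin itself, had 579 and 561 CPM in the knockout and 673 and 643 CPM in 2iL and did not pass (-0.21 ± 0.09, adjusted p = 0.0827). Without 2iL replicate 1 the list had 4 lower and 1 higher.

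Wnt target genes did not move as a block. Of 16 tested, 8 were higher, 2 lower and 6 did not pass, with a median of 0.55, or 0.24 with the stem cell receptor Lgr5, which has no 2iL count, at its bound. Axin2 and Znrf3 were among the higher ones. The 2 lower ones were Notum and Tcf7, and Nkd1 and Apcdd1 were among those that did not pass. Notum had 39.2 and 42.9 CPM in the knockout and 63.2 and 71.4 CPM in 2iL (-0.71 ± 0.20, adjusted p = 0.0123). Tcf7 was lower by less (-0.33 ± 0.10, adjusted p = 0.0203). Axin2 (ENSMUSG00000000142.15), a scaffold of the destruction complex, had 123 and 107 CPM in the knockout, 38.3 and 50.4 CPM in 2iL and 43.6 and 28.96 CPM in unmodified serum/LIF (1.37 ± 0.26, adjusted p = 0.00102), and its knockout libraries lay above all others. Znrf3, a ligase that removes Wnt receptors, stood at 58.3 and 52.3 CPM against 21.3 and 31.5 CPM (1.07 ± 0.16, adjusted p = 0.000211). Cdx1, a homeobox gene that responds directly to Wnt, had 105 and 103 CPM in the knockout, 54.4 and 28.01 CPM in 2iL and only 3.58 and 2.35 CPM in unmodified serum/LIF (1.34 ± 0.24, adjusted p = 0.000748 against 2iL). For Axin2 and Cdx1 the knockout was thus the highest setting. T, the mesoderm factor Brachyury, was also much higher than in 2iL, 74.2 and 80.3 against 1.56 and 2.902 CPM (5.11 ± 0.30, adjusted p = 8.27e-08), but unmodified serum/LIF held it at 124 and 75.2 CPM as well. Sp5, a feedback repressor of Wnt targets, had 29.9 and 37.3 against 44.1 and 44.4 CPM and did not pass (-0.40 ± 0.28, adjusted p = 0.276), nor did Ccnd1, cyclin D1 (-0.14 ± 0.17, adjusted p = 0.524). The list's counts were 7 higher and 1 lower without 2iL replicate 1, 6 and 0 without 2iL replicate 2, 7 and 0 without knockout replicate 1, and 8 and 4 with the replicate number as a block, and its median was 0.04 over genes at 1 CPM in 4 libraries and 0.03 with only the 4 compared libraries.

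Most targets and feedback inhibitors of ERK were higher in the knockout than in 2iL. Of 16 tested, 12 were higher and 1 lower, with a median of 2.41 against -0.0025 over all genes. Spry4 (ENSMUSG00000024427.6), an inhibitor of receptor tyrosine kinase signalling that ERK induces, stood at 247 and 228 CPM in the knockout and 0.367 and 0.829 CPM in 2iL, with 48.1 and 45.6 CPM in unmodified serum/LIF. Its log2 fold change was 8.62 ± 0.26 (adjusted p = 3.75e-10), and 9.34 without 2iL replicate 2. Spry2, its paralog, had 97.8 and 98.98, 8.21 and 10.9 and 49.3 and 43.2 CPM in the same order (3.37 ± 0.14, adjusted p = 6.74e-09). Both Sprouty genes and the ETS factor Etv4 (184 and 191 against 56.4 and 68.8 CPM, 1.58 ± 0.14, adjusted p = 2.56e-06) were thus higher in the knockout than in either medium of the unmodified cells. Etv4 stood at 36.97 and 35.2 CPM in unmodified serum/LIF.

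The immediate-early factor Egr1 stood at 14.02 and 23.9 CPM in the knockout and 0.688 and 0.276 CPM in 2iL (5.28 ± 0.42, adjusted p = 9.15e-07, and 6.09 without 2iL replicate 1). In unmodified serum/LIF it had 21.1 and 18.6 CPM, within the range of the knockout. Myc (ENSMUSG00000022346.15), the growth regulator, had 79.4 and 88.02 CPM against 6.33 and 6.82 CPM (3.67 ± 0.16, adjusted p = 9.23e-09), again near its unmodified serum/LIF level of 84.2 and 67.5 CPM. The ERK phosphatase gene Dusp6 had 60.9 and 59.2 against 6.52 and 11.7 CPM (2.72 ± 0.26, adjusted p = 5.5e-06). Dusp4, another MAP kinase phosphatase, had 18.6 and 14.5 against 0.642 and 1.34 CPM (4.06 ± 0.38, adjusted p = 4.07e-06, and 4.70 without 2iL replicate 2), well below its 145 and 83.8 CPM in unmodified serum/LIF. Dusp4 and Dusp6 therefore stood between the other settings in the knockout. The exceptions were the ETS factor Etv5, which was lower (353 and 377 against 469.9 and 504 CPM, -0.42 ± 0.11, adjusted p = 0.0106), and Ier2, Spred2 and Dusp5, which did not pass. Etv5 lost its call without 2iL replicate 2 (adjusted p = 0.0658) and without knockout replicate 1 (adjusted p = 0.0874).

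**Figure D2:**
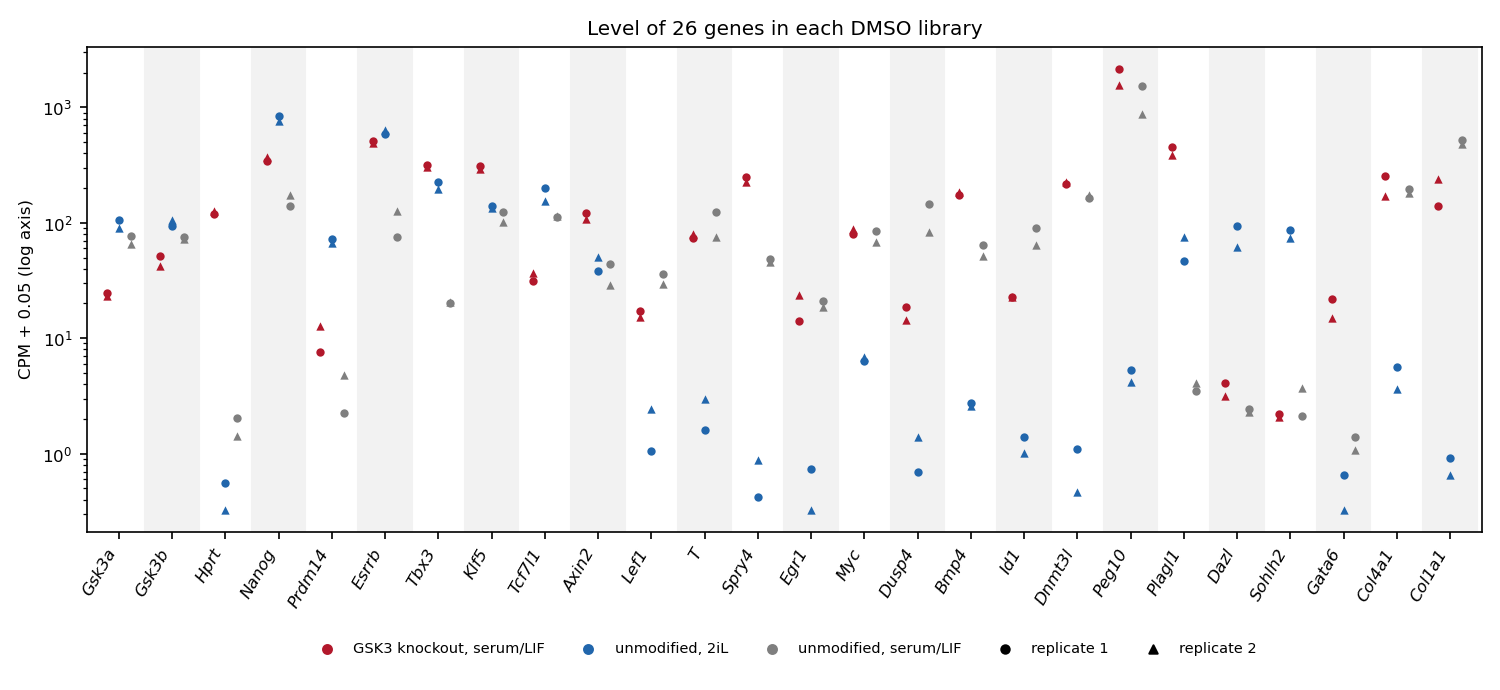
CPM + 0.05 on a log axis for 26 genes in the 6 DMSO libraries; circles are replicate 1, triangles replicate 2, red the knockout in serum/LIF, blue unmodified cells in 2iL and grey unmodified cells in serum/LIF. Spry4, Bmp4, Dnmt3l and Peg10 are low in 2iL alone, Prdm14, Dazl and Sohlh2 are high in 2iL alone, and Hprt is high in the knockout alone.

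Naive pluripotency genes were more often lower than higher in the knockout relative to 2iL. Of 16 tested, 8 were lower, 2 higher and 6 did not pass, with a median of -0.36. Nanog, a homeobox factor at the centre of the naive network (ENSMUSG00000012396.12), stood at 339.7 and 372 CPM in the knockout, 846 and 756 CPM in 2iL and 140.1 and 174 CPM in unmodified serum/LIF, a log2 fold change of -1.17 ± 0.14 (adjusted p = 3.27e-05). Prdm14, a repressor of differentiation and of de novo DNA methylation, was further apart, at 7.62 and 12.6 against 72.2 and 66.7 CPM (-2.78 ± 0.27, adjusted p = 6.13e-06). Klf2, a Krüppel-like factor of the naive state, had 192 and 178 against 355 and 310.2 CPM (-0.85 ± 0.17, adjusted p = 0.00131). Fgf4, the growth factor that activates ERK in ES cells (-1.35 ± 0.18, adjusted p = 7.97e-05), and Tcl1, a cofactor of the kinase Akt (-1.85 ± 0.26, adjusted p = 9.82e-05), were lower too. For each of these the knockout lay between 2iL and unmodified serum/LIF. Dppa3 was lower too (-3.85 ± 0.64, adjusted p = 0.000385), but with another order. It had 0.0508 and 0.503 CPM in the knockout, 3.07 and 4.79 CPM in 2iL and 10.9 and 19.3 CPM in unmodified serum/LIF.

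Tbx3 and Klf5, both naive factors, were the 2 higher members. Tbx3 had 315 and 303 CPM in the knockout, 224 and 197 CPM in 2iL and 19.96 and 20.5 CPM in unmodified serum/LIF (0.55 ± 0.11, adjusted p = 0.00148 against 2iL), and Klf5 had 309 and 293 against 139.7 and 135 CPM (1.13 ± 0.12, adjusted p = 1.46e-05). Esrrb, a nuclear receptor that Tcf7l1 represses, had 511 and 494 CPM in the knockout and 593 and 632 CPM in 2iL and did not pass (-0.28 ± 0.21, adjusted p = 0.287), while unmodified serum/LIF had 74.97 and 126 CPM. Klf4, Nr5a2, Nr0b1, Zfp42 and Tet2 also did not pass against 2iL. Set against unmodified serum/LIF, 14 of the 16 were higher in the knockout (18.9% of all genes were) and 14 higher in 2iL (28.3% of all genes), in comparisons that share their control libraries. Klf4, for example, stood at 146 and 158 CPM in the knockout, 158 and 114 CPM in 2iL and 37.9 and 44.7 CPM in unmodified serum/LIF. Klf4 passed as higher in the knockout without 2iL replicate 1 (0.43, adjusted p = 0.0227).

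Factors shared by naive and later pluripotent cells split. Of 10 tested, 5 were higher and 1 lower, with a median of 0.31, while Pou5f1, Sox2, Sall4 and Dppa5a did not pass. Lin28a, an RNA-binding protein that blocks let-7 maturation, had 185 and 177 CPM in the knockout, 16.1 and 27.5 CPM in 2iL and 312 and 277 CPM in unmodified serum/LIF (3.05 ± 0.22, adjusted p = 4.05e-07). Utf1, a chromatin factor of pluripotent cells, had 236 and 242, 38.4 and 29.9 and 229.7 and 277 CPM (2.81 ± 0.19, adjusted p = 2.21e-07). Dppa4, a nuclear protein of pluripotent cells, was higher by less (85.7 and 93.00 against 49.6 and 37.8 CPM, 1.03 ± 0.15, adjusted p = 0.000162). For Lin28a, Utf1 and Dppa4 both serum groups were above 2iL.

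Most formative and primed genes were higher in the knockout than in 2iL. Of 14 tested, 9 were higher, 2 lower and 3 did not pass, with a median of 1.42. Dnmt3b, a de novo DNA methyltransferase, stood at 125 and 109 CPM in the knockout, 47.3 and 50.7 CPM in 2iL and 462 and 564 CPM in unmodified serum/LIF (1.26 ± 0.13, adjusted p = 1.02e-05). Grhl2, an epithelial regulator of the formative state, had 21.3 and 21.2, 2.203 and 2.99 and 50.5 and 51.6 CPM (3.03 ± 0.17, adjusted p = 4.67e-08), and N-cadherin (Cdh2) had 22.6 and 23.2, 4.36 and 5.02 and 109 and 96.3 CPM (2.29 ± 0.21, adjusted p = 3.15e-06). In all 3 the knockout lay between the unmodified groups. Set against unmodified serum/LIF, a comparison that shares the knockout libraries, 11 of the 14 were lower in the knockout (21.0% of all genes were) and 1 higher. Otx2, which organises formative enhancers, had 5.28 and 7.098 against 4.59 and 5.896 CPM and did not pass, with 32.99 and 56.2 CPM in unmodified serum/LIF. The lower members were 0 without 2iL replicate 2 or without knockout replicate 2, and 8 were higher without 2iL replicate 2.

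The BMP axis was higher in the knockout at the level of ligand and ID genes. Of 10 tested, 6 were higher and 1 lower, with a median of 0.63, or 1.13 without 2iL replicate 1. Bmp4 (ENSMUSG00000021835.14), the ligand that induces ID genes in ES cells, had 173 and 185 CPM in the knockout, 2.71 and 2.53 CPM in 2iL and 63.6 and 51.2 CPM in unmodified serum/LIF (6.09 ± 0.18, adjusted p = 3.75e-10). Id1, an inhibitor of differentiation-promoting bHLH factors, had 22.9 and 22.9, 1.33 and 0.967 and 90.9 and 64.5 CPM (4.31 ± 0.25, adjusted p = 6.96e-08). Bmp4 was thus highest in the knockout and Id1 highest in unmodified serum/LIF. Id3 was higher (1.66 ± 0.20, adjusted p = 3.38e-05) and Id4 lower (10.6 and 13.6 against 21.6 and 27.5 CPM, -1.02 ± 0.20, adjusted p = 0.00113). The receptor Bmpr1a was higher (0.78 ± 0.11, adjusted p = 0.000138).

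Nodal signalling showed the opposite sign at the ligand. Of 9 tested, 3 were lower (22.0% of all genes were) and 3 higher (21.3%). Nodal had 37.2 and 39.3 CPM in the knockout, 127 and 105 CPM in 2iL and 187 and 181 CPM in unmodified serum/LIF (-1.60 ± 0.17, adjusted p = 9.75e-06), and its effector Smad3 had 10.5 and 10.4 against 35.9 and 39.3 CPM (-1.85 ± 0.17, adjusted p = 2.76e-06). The type I receptor Acvr1b was higher (111 and 89.2 against 42.5 and 44.1 CPM, 1.21 ± 0.15, adjusted p = 4.42e-05). For Nodal and Smad3 the knockout was the lowest setting. Lefty1, the Nodal inhibitor, was lower (12.04 and 17.3 against 19.7 and 54.6 CPM, -1.34 ± 0.37, adjusted p = 0.0108), but not without 2iL replicate 2 (-0.40, adjusted p = 0.265) or knockout replicate 1 (adjusted p = 0.0948). Along the LIF route, which both media feed, the receptor genes Lifr (-0.07 ± 0.16, adjusted p = 0.756) and Il6st (-0.09 ± 0.20, adjusted p = 0.757) did not pass. Socs3, the feedback inhibitor that STAT3 induces, was higher (31.3 and 31.97 against 7.43 and 7.05 CPM, 2.13 ± 0.14, adjusted p = 1.68e-07), as was Junb (1.66 ± 0.22, adjusted p = 5.71e-05), while Bcl3 was lower (-0.91 ± 0.16, adjusted p = 0.000674). Of 10 LIF-STAT3 genes 3 were higher (21.3% of all genes were) and 4 lower (22.0%). The lower ones were fewer when any single one of the compared libraries was left out.

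Primitive endoderm markers were higher in the knockout than in 2iL, and many but not all of them were above unmodified serum/LIF as well. Primitive endoderm is the extraembryonic layer that lines the blastocyst cavity, and ES cultures hold a few such cells. Of 14 tested, 13 were higher and 0 lower, with a median of 4.13; only Sparc did not pass. Gata6 (ENSMUSG00000005836.8), the factor that specifies the layer, had 21.6 and 15.03 CPM in the knockout, 0.597 and 0.276 CPM in 2iL and 1.34 and 1.02 CPM in unmodified serum/LIF (5.38 ± 0.36, adjusted p = 2.17e-07, and 6.05 without 2iL replicate 1). Hnf4a, a nuclear receptor of visceral endoderm, had 14.8 and 13.1, 0.597 and 0.369 and 0.0407 and 0.154 CPM (4.84 ± 0.44, adjusted p = 5.62e-06). Sox17 had 9.45 and 8.22, 0.505 and 0.461 and 0.692 and 0.205 CPM (4.18 ± 0.45, adjusted p = 1.36e-05), and the receptor Pdgfra 27.4 and 17.8, 1.51 and 1.15 and 3.71 and 4.55 CPM (4.08 ± 0.34, adjusted p = 1.41e-06). In these 4 the knockout was the highest setting, and 10 of the 14 passed as higher and 3 as lower against unmodified serum/LIF. Summed levels of the 15 listed genes were 1206 and 928 CPM in the knockout and 297 and 330 CPM in 2iL. In unmodified serum/LIF they were 1276 and 1157 CPM, so the sum was not higher in the knockout than there. Cubn, an uptake receptor of visceral endoderm, was higher as well (11.8 and 8.44 against 0.0918 and 0.369 CPM, 5.43 ± 0.58, adjusted p = 1.17e-05, with 4.78 and 6.73 without 2iL replicates 1 and 2). The basement membrane genes Lama1 (398 and 287 against 63.7 and 105 CPM, 2.02 ± 0.23, adjusted p = 1.8e-05) and Col4a1 (256 and 169.5 against 5.55 and 3.59 CPM, 5.54 ± 0.34, adjusted p = 9.65e-08) were higher too, and fibroblasts also express Col4a1 and Lamb1. All 14 genes were higher in knockout replicate 1 than in replicate 2, with a median ratio of replicate 2 to replicate 1 of 0.777. In bulk RNA fewer or more cells of a type and less or more RNA per cell cannot be told apart.

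Mesendoderm genes were higher in part. Of 11 tested, 6 were higher and 1 lower, with a median of 2.40. Eomes, a T-box factor of mesendoderm, had 58.2 and 63.5 CPM in the knockout, 14.04 and 9.03 CPM in 2iL and 42.5 and 39.7 CPM in unmodified serum/LIF (2.40 ± 0.20, adjusted p = 1.64e-06). Gsc, a homeobox gene of the anterior primitive streak, was lower, at 0.203 and 0.224 against 12.02 and 6.31 CPM (-5.39 ± 0.53, adjusted p = 5.71e-06). Mixl1 (1.22 and 1.56 against 1.01 and 0.875 CPM), Wnt3 (0.6603 and 0.447 against 0.505 and 0.276 CPM) and Fgf8 (0.356 and 0.224 against 0.229 and 0.2303 CPM) did not pass, whereas unmodified serum/LIF had 35.6 and 22.8, 111 and 64.3 and 35.8 and 27.1 CPM. The knockout cells, though in serum, were thus near 2iL in these 3 genes. The trophoblast factor Cdx2 was higher (28.8 and 25.9 against 0.642 and 0.553 CPM, 5.50 ± 0.52, adjusted p = 4.25e-06) and Tfap2c lower (-1.76 ± 0.23, adjusted p = 7.07e-05). Krt8, a keratin of simple epithelia, had 14.98 and 11.5 CPM in the knockout, 3.49 and 3.32 CPM in 2iL and 1056 and 495 CPM in unmodified serum/LIF (1.96 ± 0.42, adjusted p = 0.00227). Of 8 trophoblast genes 3 were higher and 2 lower, or 1 lower without knockout replicate 1. Of 6 neuroectoderm genes 2 were lower and 0 higher. They were Sox21 (1.47 and 1.73 against 35.98 and 46.2 CPM, -4.68 ± 0.23, adjusted p = 2.26e-08) and Pax6 (0.254 and 0.224 against 3.49 and 2.21 CPM, -3.54 ± 0.54, adjusted p = 0.000197).

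All 5 tested genes of the 2-cell-like program, a transient state of ES cultures that resembles the early cleavage embryo, were lower in the knockout. Zscan4f stood at 0.305 and 0.224 CPM in the knockout, 20.3 and 6.03 CPM in 2iL and 11.6 and 5.27 CPM in unmodified serum/LIF (-5.60 ± 0.72, adjusted p = 4.92e-05). The 2iL libraries differed widely, with summed levels of 59.0 and 17.5 CPM against 0.610 and 1.40 CPM in the knockout, and the log2 fold change of Zscan4f was -4.46 without 2iL replicate 1 and -6.21 without 2iL replicate 2. Zscan4c had 0.254 and 0.615 against 18.5 and 4.93 CPM (-4.76 ± 0.77, adjusted p = 0.000545), with -3.49 without 2iL replicate 1, -5.40 without 2iL replicate 2 and -5.50 without knockout replicate 2. Gm4340 had 0 and 0.335 against 9.91 and 3.18 CPM (-5.30 ± 0.99, adjusted p = 0.00187), with -4.24 without 2iL replicate 1, -4.26 without knockout replicate 1 and -10.29 without knockout replicate 2, where no count was left, and did not pass in DESeq2 (adjusted p = 0.226). These genes have near-identical copies that share reads, so single members are uncertain.

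Fibroblast and contractile genes were among those with the largest differences. All 10 tested fibroblast markers were higher in the knockout, with a median of 6.40, or 3.14 with the 4 that have no 2iL count at their bounds. Col1a1, the main chain of type I collagen, had 139 and 239 CPM in the knockout, 0.872 and 0.599 CPM in 2iL and 518 and 482 CPM in unmodified serum/LIF (7.99 ± 0.35, adjusted p = 9.04e-09). Thy1, a surface marker of fibroblasts, had 11.3 and 9.78, 1.15 and 0.645 and 12.7 and 11.97 CPM (3.55 ± 0.34, adjusted p = 4.28e-06). Serum response and YAP targets had 8 of 12 higher and 0 lower. Ccn1, a matricellular protein that serum and YAP induce, stood at 27.6 and 32.6, 4.68 and 2.72 and 497 and 303 CPM (3.02 ± 0.34, adjusted p = 1.96e-05), and Acta2, smooth muscle actin, at 60.5 and 86.9, 0 and 0.0461 and 395 and 281 CPM, a ratio of summed levels of 3179 (95% interval 570 to 125590), which covers counting error only. Tagln, an actin-binding protein of contractile cells, had 29.8 and 42.3, 0.138 and 0.0461 and 562 and 361 CPM (8.53 ± 0.55, adjusted p = 1.8e-07, and 9.47 without 2iL replicate 1). Myl9, a myosin light chain, had 3 counts in 2iL, a ratio of 74.5 (95% interval 25.1 to 364), and the collagen gene Col1a2 likewise had 3, a ratio of 1461 (95% interval 499.6 to 7089). In these genes unmodified serum/LIF was the highest setting and 2iL the lowest. Fibroblasts express many of the serum response genes too, 8 of the 10 fibroblast markers and 10 of the 12 serum response genes were higher in knockout replicate 2 than in replicate 1 (median ratios 1.39 and 1.41, against 0.998 over all genes), and the part of feeder RNA in these differences was not tested.

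**Figure D3:**
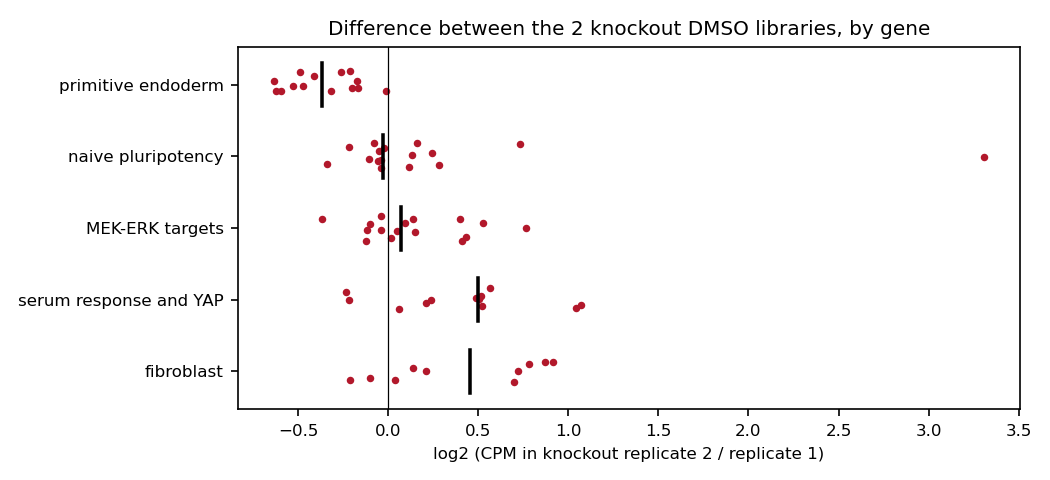
log2 ratio of CPM in knockout DMSO replicate 2 to replicate 1 for the tested members of 5 lists with counts in both libraries; each point is a gene and the black bar is the list's median. All 14 primitive endoderm genes lie left of 0, most fibroblast and serum response genes lie to the right, and the point near 3.3 is Dppa3, at 0.0508 and 0.503 CPM.

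Among genes with a mean of at least 5 CPM in either group, a symbol that is not a predicted name and no overlap between the groups, the 12 with the largest fitted increase were Lox, Inhba, Cav1, Bgn, Acta2, Col8a1, Col3a1, H19, S100a4, Col6a3, Thbs1 and Cavin2. Of them 9 had no count in either 2iL library, 2 had 1 count, and 11 were higher in knockout replicate 2, with a median ratio of 1.43. Lox, which cross-links collagen, had 49.98 and 81.8 CPM in the knockout, 0 in both 2iL libraries and 85.5 and 111 CPM in unmodified serum/LIF, at least 478-fold higher than the floor of 3 counts per library. Inhba, a subunit of activin A, was at least 210.4-fold higher by the same measure. Thbs1, a matricellular protein, had 163 and 219 CPM against 0.0918 and 0.0921 CPM and 817 and 625 CPM in unmodified serum/LIF (10.94 ± 0.64, adjusted p = 7.45e-08). Each of these 3 genes is abundant in fibroblasts, and each was higher in knockout replicate 2.

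Adhesion genes were also more often higher than lower. Of 12 adhesion genes tested, 7 were higher and 1 lower, with a median of 2.28. Epcam, an epithelial adhesion protein, stood at 174 and 181 CPM in the knockout, 26.5 and 25.5 CPM in 2iL and 233 and 259.6 CPM in unmodified serum/LIF (2.77 ± 0.12, adjusted p = 7.51e-09). The tight junction gene Cldn6 had 40.2 and 43.5, 2.34 and 3.09 and 304 and 287 CPM (3.94 ± 0.16, adjusted p = 4.24e-09). Cldn7, another claudin, had 6.86 and 7.15 against 1.15 and 0.645 CPM (2.96 ± 0.25, adjusted p = 1.57e-06). Cd44, a hyaluronan receptor that fibroblasts also carry, had 18.7 and 25.4 against 0.275 and 0.415 CPM (5.98 ± 0.29, adjusted p = 1.96e-08). Zeb1, a repressor of epithelial genes, was lower (14.1 and 14.8 against 30.4 and 34.6 CPM, -1.17 ± 0.14, adjusted p = 3.75e-05), and E-cadherin (Cdh1) did not pass (-0.02 ± 0.13, adjusted p = 0.932). Snai1 (2.27, adjusted p = 0.000177) and N-cadherin (Cdh2, 2.29 ± 0.21, adjusted p = 3.15e-06), in the same list, were higher. The list thus did not split by epithelial and mesenchymal members.

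Several germline genes that 2iL cells express were low in the knockout. Of 13 tested, 5 were lower, 2 higher and 6 did not pass, with a median of -0.94. Dazl (ENSMUSG00000010592.8), an RNA-binding protein of germ cells, had 4.06 and 3.13 CPM in the knockout, 94.5 and 61.7 CPM in 2iL and 2.38 and 2.25 CPM in unmodified serum/LIF (-4.43 ± 0.21, adjusted p = 1.55e-08). Sohlh2, a bHLH factor of early germ cells, had 2.13 and 2.01, 86.5 and 74.03 and 2.08 and 3.68 CPM (-5.27 ± 0.26, adjusted p = 1.97e-08). Hormad1, a meiotic axis protein, had 3.15 and 3.24, 43.3 and 41.1 and 2.04 and 3.07 CPM (-3.72 ± 0.26, adjusted p = 3.33e-07). In these 3 both serum groups were low and 2iL alone was high. Stra8, the gatekeeper of meiosis, had 0.6096 and 0.503 against 44.1 and 19.9 CPM (-5.83 ± 0.46, adjusted p = 3.48e-06, and -5.12 without 2iL replicate 1). Sycp3, of the synaptonemal complex, was lower (8.28 and 7.38 against 16.8 and 14.6 CPM, adjusted p = 0.0257) and lost its call without 2iL replicate 1 (adjusted p = 0.107), knockout replicate 1 (adjusted p = 0.0813) or knockout replicate 2 (adjusted p = 0.122). Sycp1, of the same complex, was higher (17.1 and 11.6 against 6.15 and 11.1 CPM, 0.74 ± 0.27, adjusted p = 0.0411) and lost its call without 2iL replicate 1 (adjusted p = 0.282) or knockout replicate 1 (adjusted p = 0.331). Ddx4, a germ cell helicase, had 9.91 and 10.4 and 10.1 and 10.4 CPM and did not pass.

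The promoters of germline genes are shown because members of this list moved in both directions and 7 of the 13 hold the same letter pattern. The E-box CACGTG, which MYC, MAX and related bHLH factors can bind and which reads the same on both strands, was found in the 250 bases before the RefSeq start of 7 of the 13 genes, in 8 of their 14 promoters (57.14%), against 6.02% of all 32851 promoters. The 2 Hormad1 promoters start 2 bases apart and hold the same E-boxes, so that gene enters the 57.14% with 2 promoters. E-boxes hold a CG, and the germline promoters that carry it have 12 to 31 CG dinucleotides where the median promoter has 6. With at least 12, the germline promoters had it in 8 of 12 and all promoters in 9.76%. The limit of 12 was taken from the germline promoters with a match, so these shares are a description and not a test. The promoters below are from the RefSeq table (GRCm38.p6), written 5′ to 3′ on the gene's strand, with CACGTG in capitals: Hormad1 (chr3:95559427-95559676, + strand) and Sycp3 (chr10:88459337-88459586, + strand), lower in the knockout, hold 2 each, Sycp1 (chr3:102936101-102936350, - strand), higher, holds 1, and Dazl (chr17:50293621-50293870, - strand) and Sohlh2 (chr3:55181794-55182043, + strand), both lower, hold none.
Hormad1: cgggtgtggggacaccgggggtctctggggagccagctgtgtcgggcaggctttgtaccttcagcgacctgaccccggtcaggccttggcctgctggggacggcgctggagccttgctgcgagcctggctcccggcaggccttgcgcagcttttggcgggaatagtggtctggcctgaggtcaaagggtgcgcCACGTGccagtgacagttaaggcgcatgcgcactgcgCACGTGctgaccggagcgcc
Sycp3: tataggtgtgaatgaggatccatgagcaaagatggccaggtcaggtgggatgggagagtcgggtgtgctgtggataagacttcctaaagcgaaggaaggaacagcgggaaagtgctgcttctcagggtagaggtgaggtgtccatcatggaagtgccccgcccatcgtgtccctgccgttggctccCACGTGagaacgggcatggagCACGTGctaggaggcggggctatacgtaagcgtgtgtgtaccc
Sycp1: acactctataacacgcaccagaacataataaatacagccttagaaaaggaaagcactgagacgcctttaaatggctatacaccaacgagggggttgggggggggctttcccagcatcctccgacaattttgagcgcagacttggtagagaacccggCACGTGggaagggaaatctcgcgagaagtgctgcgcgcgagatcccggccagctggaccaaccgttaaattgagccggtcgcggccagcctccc
Dazl: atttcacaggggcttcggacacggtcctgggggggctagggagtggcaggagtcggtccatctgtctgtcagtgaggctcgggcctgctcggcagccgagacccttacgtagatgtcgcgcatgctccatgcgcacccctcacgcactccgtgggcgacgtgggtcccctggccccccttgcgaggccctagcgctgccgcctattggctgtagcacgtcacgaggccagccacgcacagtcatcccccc
Sohlh2: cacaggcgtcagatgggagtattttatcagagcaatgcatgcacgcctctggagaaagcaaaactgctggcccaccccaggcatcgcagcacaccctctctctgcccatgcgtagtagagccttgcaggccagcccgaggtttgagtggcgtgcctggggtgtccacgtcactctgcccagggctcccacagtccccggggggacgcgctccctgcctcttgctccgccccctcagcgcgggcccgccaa
The genes with a match were thus lower (Hormad1, Sycp3), higher (Sycp1) or not called (Ddx4, Mael, Slc25a31, Taf7l). Promoters were available for 9 of the 16 Wnt targets and 8 of the 16 ERK targets. In 15 promoters of the 9 Wnt targets CTTTGAT (TCF/LEF) was found in 2 (13.33%, against 3.21% of all promoters), those of Sp5 and Tnfrsf19, which did not pass. CCGGAAG (ETS) and CACGTG were each found in 2 of these 15 as well (6.91% and 6.02% of all promoters). In 9 promoters of the 8 ERK targets CCGGAAG was found in 0.

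Genes of the DNA methylation machinery moved in both directions, also within its de novo arm. Dnmt3l (ENSMUSG00000000730.13), the catalytically inactive cofactor of the de novo enzymes, had 218 and 225 CPM in the knockout, 1.06 and 0.415 CPM in 2iL and 165 and 174 CPM in unmodified serum/LIF (8.22 ± 0.37, adjusted p = 1.14e-08, and 9.06 without 2iL replicate 1). Both serum groups were thus high and 2iL near 0. Zfp57, which protects imprints from demethylation, was higher (547 and 512 against 356 and 334 CPM, 0.62 ± 0.10, adjusted p = 0.000273), as was Dnmt3b. Of the 10 genes 3 were higher (21.3% of all genes were) and 3 lower (22.0%). The 3 lower ones, the maintenance genes Dnmt1 (289 and 266 against 326 and 411 CPM) and Uhrf1 (469 and 503 against 575 and 616 CPM) and the de novo enzyme Dnmt3a (41.1 and 33.6 against 54.9 and 63.5 CPM), all lost their calls without 2iL replicate 2 or without knockout replicate 2.

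Imprinted genes, which are expressed from a single parental allele, were mostly higher. Of 15 tested, 9 were higher and 2 lower, with a median of 0.85. Peg10 (ENSMUSG00000092035.8), a retrotransposon-derived gene, had 2149 and 1578 CPM in the knockout, 5.23 and 4.15 CPM in 2iL and 1539 and 869.7 CPM in unmodified serum/LIF (8.63 ± 0.40, adjusted p = 1.39e-08). Plagl1, a zinc finger regulator of other imprinted genes, had 450.4 and 389, 46.3 and 74.7 and 3.44 and 4.04 CPM (2.79 ± 0.27, adjusted p = 4.88e-06), so that the knockout was above both unmodified groups. The non-coding Kcnq1ot1 had 1055 and 961, 256 and 362 and 496 and 600.2 CPM (1.71 ± 0.16, adjusted p = 4.51e-06). Igf2, a fetal growth factor, had 18.8 and 16.7, 0.184 and 0.138 and 190.3 and 149.7 CPM (6.74 ± 0.51, adjusted p = 6.78e-07). H19, a non-coding RNA that fibroblasts also express, had 16.8 and 7.99 CPM in the knockout and 0 in both 2iL libraries, at least 89.9-fold higher. Grb10, a growth-limiting adaptor, was lower (24.1 and 24.98 against 87.6 and 94.6 CPM, -1.89 ± 0.14, adjusted p = 6.4e-07). Meg3, Rian, Mirg and Peg3 did not pass, and Peg3 passed as lower without 2iL replicate 1. Counts do not separate the alleles. Among 12 polycomb genes 3 were higher (21.3% of all genes were) and 4 lower (22.0%). Jarid2, a cofactor of PRC2, stood at 559 and 562 against 269.6 and 269 CPM (1.06 ± 0.16, adjusted p = 0.000232). Pcgf1, a PRC1 subunit, stood at 7.16 and 6.82 against 18.1 and 13.2 CPM (-1.16 ± 0.20, adjusted p = 0.000426). Cbx7, a PRC1 reader, was higher (0.61 ± 0.17, adjusted p = 0.0116) and lost its call without 2iL replicate 1 (adjusted p = 0.0895) or knockout replicate 2 (adjusted p = 0.0544). The polycomb counts were 2 and 1 without 2iL replicate 1 and 3 and 2 without knockout replicate 1.

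**Figure D4:**
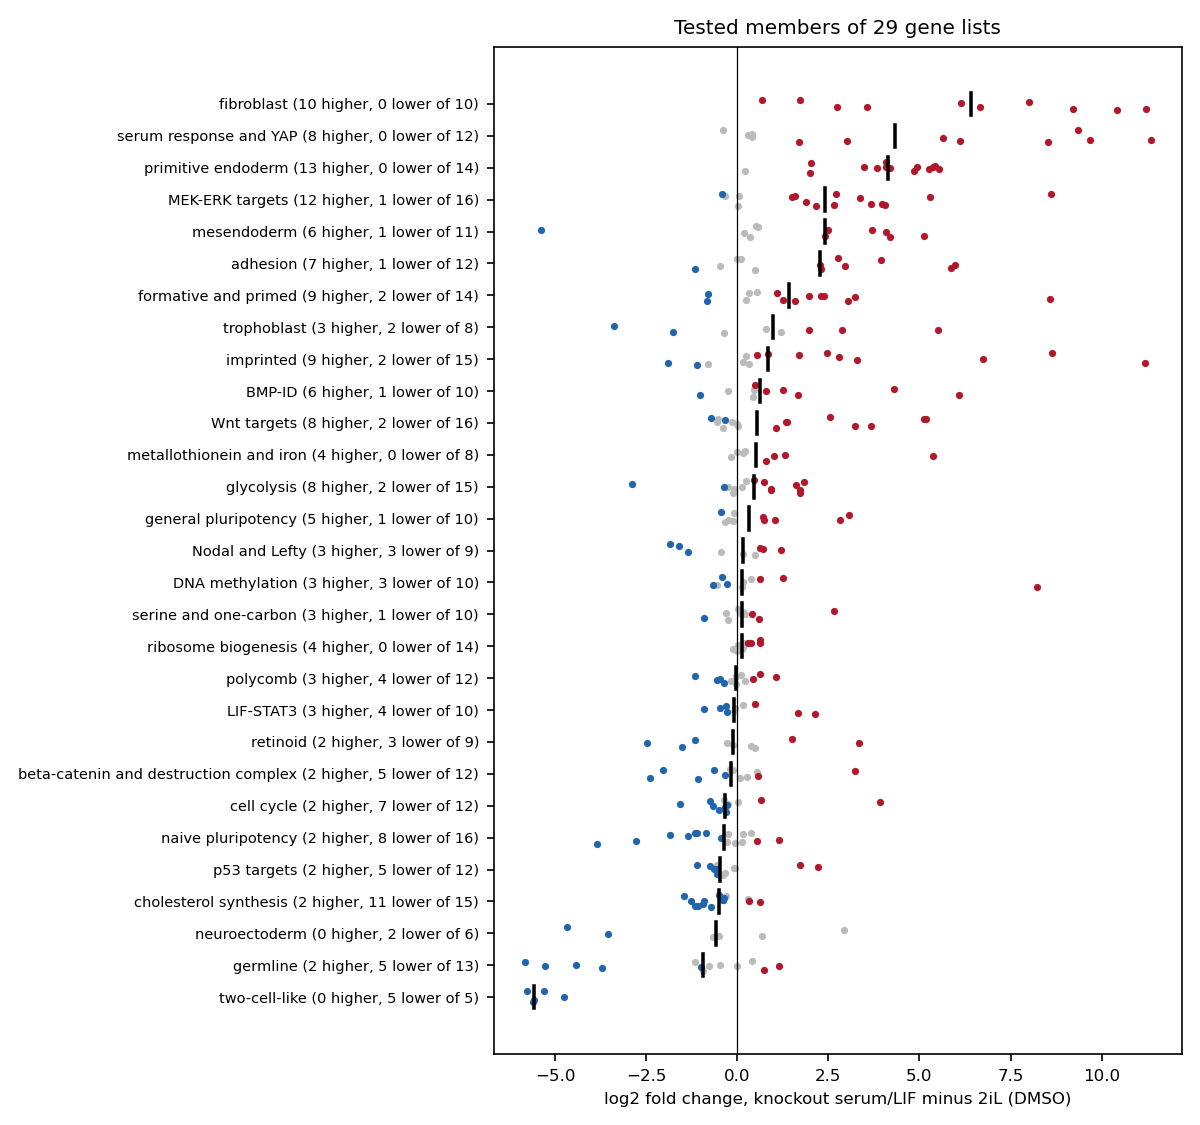
log2 fold change, knockout serum/LIF minus 2iL, of every tested member of 29 gene lists; red points passed as higher, blue as lower, grey did not pass, and black bars are the medians. The fibroblast (6.40), serum response (4.34), primitive endoderm (4.13) and ERK target (2.41) medians lie farthest right and the 2-cell-like median (-5.59) farthest left; fitted values of genes with no count in 2iL are not sizes.

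Glucose uptake and glycolysis genes were higher and sterol synthesis genes lower in the knockout. Of 15 glycolysis genes, 8 were higher and 2 lower, with a median of 0.45; the lower ones were 1 without 2iL replicate 1 or knockout replicate 1. The glucose transporter Slc2a3 had 4971 and 4329 CPM in the knockout, 1271 and 1341 CPM in 2iL and 3225 and 2453 CPM in unmodified serum/LIF (1.83 ± 0.20, adjusted p = 1.3e-05), and Slc2a1 had 568 and 585, 165 and 185 and 1481 and 1237 CPM (1.72 ± 0.18, adjusted p = 9.47e-06). Ldha, which makes lactate, had 1021 and 1146 against 377 and 336 CPM (1.60 ± 0.12, adjusted p = 7.51e-07) and the phosphofructokinase Pfkl 218 and 226 against 67.8 and 66.3 CPM (1.72 ± 0.10, adjusted p = 8.68e-08). Ldha and Pfkl stood near their unmodified serum/LIF levels of 1186 and 1138 and 254 and 239 CPM. Hk1, a hexokinase, went the other way (21.2 and 22.1 against 153 and 171 CPM, -2.90 ± 0.12, adjusted p = 7.53e-09), while Hk2 did not pass (0.14 ± 0.09, adjusted p = 0.247).

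Of 15 cholesterol genes, 11 were lower and 2 higher, with a median of -0.51. Insig1, a sterol sensor and SREBP target, had 54.6 and 52.3 CPM in the knockout, 144 and 151 CPM in 2iL and 34.5 and 39.6 CPM in unmodified serum/LIF (-1.46 ± 0.11, adjusted p = 4.49e-07). Fdps (68.02 and 73.2 against 187 and 156 CPM, -1.28 ± 0.12, adjusted p = 3.14e-06) and Fdft1 (72.03 and 73.2 against 174 and 150.4 CPM, -1.16 ± 0.12, adjusted p = 1.12e-05), enzymes of farnesyl and squalene synthesis, were lower. Fdps and Fdft1 had 88.1 and 82.3 and 77.2 and 66.8 CPM in unmodified serum/LIF, close to the knockout. Only 1 cholesterol gene was higher without any single one of the 4 libraries, and 8 to 9 were lower.

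In serine and one-carbon metabolism 3 of 10 were higher (21.3% of all genes were) and 1 lower (22.0%). Gldc, the glycine decarboxylase, had 415 and 401 CPM in the knockout, 59.6 and 69.4 CPM in 2iL and 254 and 350.4 CPM in unmodified serum/LIF (2.66 ± 0.14, adjusted p = 3.6e-08), and Tyms, thymidylate synthase, was lower (-0.91 ± 0.12, adjusted p = 5.71e-05). Phgdh, the first enzyme of serine synthesis, was higher (0.59 ± 0.14, adjusted p = 0.00382), and without 2iL replicate 2 the list had 2 higher and 2 lower. Metal handling genes included the zinc and iron importer Slc39a14, at 99.2 and 98.4, 2.52 and 2.21 and 60.3 and 84.7 CPM (5.38 ± 0.20, adjusted p = 1.95e-09), the zinc exporter Slc30a1 (1.01 ± 0.17, adjusted p = 0.00053), heme oxygenase Hmox1 (1.32 ± 0.13, adjusted p = 5.52e-06) and the transferrin receptor Tfrc (0.80 ± 0.13, adjusted p = 0.000365), with 4 of 8 higher and 0 lower. The metallothioneins Mt1 (0.21 ± 0.17, adjusted p = 0.346) and Mt2 (0.16 ± 0.17, adjusted p = 0.469) did not pass. Both groups stood well above unmodified serum/LIF in Mt1, which had 89.5 and 117 CPM there against 377 and 385 CPM in the knockout and 294 and 364 CPM in 2iL.

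Cell cycle genes were slightly lower in the knockout, apart from 2 cyclins. Of 12 tested, 7 were lower and 2 higher, with a median of -0.33, but 4 were lower without knockout replicate 1, without knockout replicate 2 or with only the 4 compared libraries. Ccnd2, cyclin D2, had 43.99 and 63.9 CPM in the knockout, 4.22 and 2.95 CPM in 2iL and 63.5 and 80.3 CPM in unmodified serum/LIF (3.91 ± 0.22, adjusted p = 5.82e-08). Ccne1, cyclin E1, was higher by less (0.65 ± 0.13, adjusted p = 0.00148), and Cdk1, the mitotic kinase, was lower (-0.74 ± 0.14, adjusted p = 0.0011). The CDK inhibitor Cdkn1b had 12.9 and 12.2 against 34.5 and 40.1 CPM (-1.57 ± 0.13, adjusted p = 1.72e-06), and Cdkn1a, the p53 target that encodes p21, 69.8 and 62.2 against 160.2 and 121 CPM (-1.09 ± 0.21, adjusted p = 0.00103). In unmodified serum/LIF Cdkn1b had 16.7 and 17.6 CPM and Cdkn1a 94.6 and 65.8 CPM, so 2iL was the highest setting for both. Of 12 p53 targets 5 were lower and 2 higher, and the lower ones ran from 3 without 2iL replicate 1 or knockout replicate 2 to 7 without 2iL replicate 2, with 1 higher without any single library, and 8 were lower with the replicate number as a block or with no filter on low counts. Perp, a desmosomal p53 target, was higher (24.7 and 22.5 against 6.42 and 3.82 CPM, 2.20 ± 0.29, adjusted p = 5.98e-05), and the death gene Bbc3 lower (-0.74 ± 0.22, adjusted p = 0.0158), though not without 2iL replicate 1 (adjusted p = 0.179) or knockout replicate 2 (adjusted p = 0.101). Ribosome biogenesis genes passed in 4 of 14, all higher (21.3% of all genes were higher), and in fewer with either knockout library left out. The snoRNP component Nop56 (0.63 ± 0.11, adjusted p = 0.00064) and the RNA polymerase I subunit Polr1b (0.61 ± 0.10, adjusted p = 0.000241) led them. Bop1 was higher by less (0.36 ± 0.12, adjusted p = 0.0281) and lost its call without 2iL replicate 2 (adjusted p = 0.152) or either knockout library (adjusted p = 0.12 and 0.0816 without replicates 1 and 2). Among 9 retinoid genes 2 were higher (21.3% of all genes were) and 3 lower (22.0%). Of the retinoid genes 0 were lower without 2iL replicate 1 or knockout replicate 2, and 1 without knockout replicate 1.

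By the same rule the 12 with the largest fitted decrease were Prmt8, Sash3, Xlr4a, Cyp1a1, Xlr3a, Pkd2l1, Tuba3b, Sp100, Zfp264, Rec114, Tuba3a and Xlr3c. Cyp1a1, a cytochrome P450 that the aryl hydrocarbon receptor induces, had 1 count over both knockout libraries against 35.1 and 34.3 CPM in 2iL, with 1.14 and 0.972 CPM in unmodified serum/LIF. Prmt8, an arginine methyltransferase, had no count in either knockout library and 21.98 and 18.1 CPM in 2iL, at least 125-fold lower. Pkd2l1, a cation channel, had 0.152 and 0.168 CPM in the knockout, 38.1 and 42.5 CPM in 2iL and 0.102 and 0.256 CPM in unmodified serum/LIF (-7.93 ± 0.30, adjusted p = 8.01e-09). In these 3 genes both serum groups were far below 2iL. Prmt8 had 0.224 and 0.614 CPM in unmodified serum/LIF. Cyp1a1 (adjusted p = 4.8e-05) and Prmt8 (adjusted p = 0.0119) also passed as lower in the knockout than in unmodified serum/LIF, while Pkd2l1 did not pass there (adjusted p = 0.908). Rec114, a meiotic recombination factor, followed the germline genes above (0.152 and 0.224 against 22.1 and 22.2 CPM, -6.85 ± 0.48, adjusted p = 3.79e-07). Tuba3a, a testis tubulin, had 3.099 and 3.86 against 269.6 and 228 CPM (-6.16 ± 0.19, adjusted p = 4.41e-10). The Xlr3 and Tuba3 genes have near-identical copies, so reads may have been split between them.

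The unmodified serum/LIF libraries show which side of each difference a gene took. Among the 2410 genes that were higher in the knockout with at least 5 CPM in either group, unmodified serum/LIF lay beyond the knockout in 918 (38.1%), between the groups but nearer the knockout in 553 (22.9%), nearer 2iL in 508 (21.1%) and beyond 2iL in 431 (17.9%). Of the 3016 lower ones these were 1414 (46.9%), 831 (27.6%), 452 (15.0%) and 319 (10.6%). Spry4, Bmp4, Gata6 and Plagl1 are examples in which the knockout exceeded both unmodified groups, and Tcf7l1 and Nodal examples in which it lay below both. Lin28a, Dnmt3b and Cldn6 are examples in which unmodified serum/LIF lay beyond the knockout. These are counts of mean levels with no test, and the serum/LIF group enters none of the fold changes of the main comparison.

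**Figure D5:**
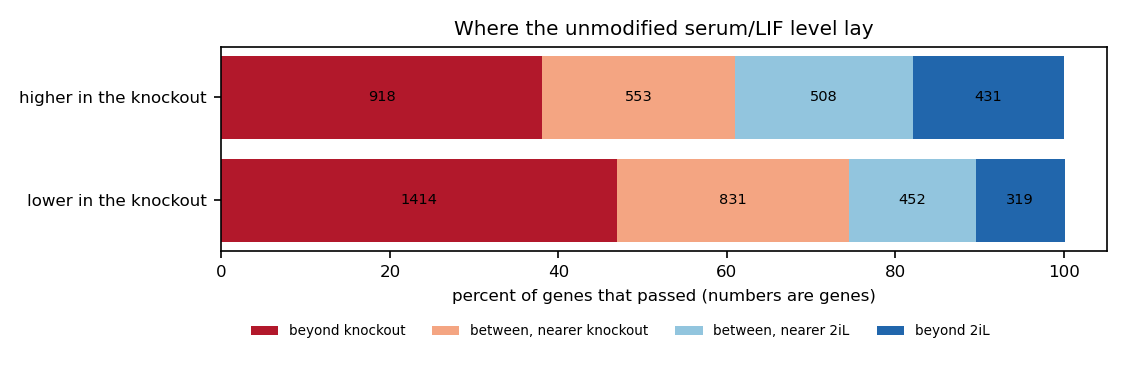
Share of called genes (5 CPM or more in either group) by where the mean level of unmodified serum/LIF lay relative to the knockout and 2iL means; numbers in the bars are genes. Unmodified serum/LIF lay on the knockout side (both red shades) in 918 and 553 of 2410 higher and in 1414 and 831 of 3016 lower genes.

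The same contrast was available in 4 further libraries, with 100 nM JQ1 in place of DMSO, which share cell lines, media and the fitted spread with the first but no library. There 7024 genes passed (41.3%), 3632 higher (21.4%) and 3392 lower (20.0%), the lower ones 2218 without knockout JQ1 replicate 2. Genes higher in both were 2073, which are 57.4% of those higher with DMSO and 57.1% of those higher with JQ1. Genes lower in both were 1941, or 52.0% and 57.2%. Opposite calls were made for 102 of the genes higher and 59 of the genes lower with DMSO. The difference between the contrasts was tested directly and passed for 2056 genes (12.1%). By list, primitive endoderm genes were higher in 14 of 14 with JQ1 and ERK targets in 12 of 16, as against 13 and 12 with DMSO. Naive pluripotency genes were lower in 12 of 16 and higher in 0, with a median of -1.44. Of the 2-cell-like genes 0 of 5 passed with JQ1.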

How the data were processed

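Polyadenylated RNA of 12 libraries was sequenced, and the deposited values are expected counts per gene, made by the authors with STAR 2.5.2 and RSEM on mm10, per the submitters' processing notes. Their rounding changed 6.11% to 8.71% of the values. Of 52550 gene IDs, 52403 were matched without version to GENCODE M21 (GRCm38). Counts were tested with edgeR 4.0.16 in R 4.3.3 (limma 3.58.1; TMM scaling; genes kept by filterByExpr with a minimum of 10 counts in a library and 15 in all; quasi-likelihood test with all 6 groups in one fit and 6 residual degrees of freedom), with Benjamini-Hochberg adjustment over 16987 genes. DESeq2 1.42.0 was an alternative. CPM are TMM-scaled. On simulated data the test found 78.7% of genes changed by a log2 fold change of 1 and 95.7% of those changed by 2, and 5.77% of calls were unchanged genes. Only 200 genes per run were changed there, none with few counts, and each gene was given the typical spread of its level. In the data 43.3% of genes passed and many have few counts, so these shares are not error rates of the comparison. Depth limits single genes: a library with no count is set against a floor of 3 counts, and ratios from 1 to 3 counts carry exact 95% intervals, for counting error only. The gene lists, and the libraries compared, were chosen with earlier results of these data known, so a list's direction is not independent evidence. Named genes are list members and the 12 with the largest fitted change in each direction among genes that passed with a mean of at least 5 CPM in either group, no overlap between the groups and a symbol that is not a predicted name. Same-numbered replicates had a correlation of deviations of -0.16, so the numbers were not taken as pairs. Promoters are RefSeq's for GRCm38.p6. A few genes of the lists are not reported here.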

Additional observations from a re-analysis of the deposited data

Results flagged for a closer look

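For 7 of the 329 list genes tested, the knockout serum/LIF against 2iL difference passed in opposite directions with DMSO and with JQ1. Over all 16987 genes such opposite calls were made for 102 of the 3612 genes higher and 59 of the 3736 lower with DMSO. The difference between the contrasts (JQ1 minus DMSO, log2) was tested in the same edgeR fit with adjusted p over all genes. Genes picked for opposite calls nearly always pass that test, so its p-values are no separate support. The naive factor Tbx3 was higher with DMSO (0.55) and lower with JQ1 (-0.32), a difference of -0.87 ± 0.16 (adjusted p = 0.00723). Zfp57, the imprint protector, went from 0.62 to -0.87, a difference of -1.49 ± 0.14 (adjusted p = 0.000263). The imprinted receptor Igf2r differed by -1.48 ± 0.26 (adjusted p = 0.00609) and the transferrin receptor Tfrc by -1.23 ± 0.19 (adjusted p = 0.00289). Sycp1, of the synaptonemal complex, differed by -2.06 ± 0.39 (adjusted p = 0.00953). In these 5 genes the change was toward a lower level in the knockout relative to 2iL under JQ1. Sall2, a zinc finger factor, differed the other way by 1.75 ± 0.34 (adjusted p = 0.0113), and Tcf7, a TCF factor, by 0.74 ± 0.14 (adjusted p = 0.0105). With DMSO 3 of the 7 calls were lost when 1 library was left out. Sall2 did not pass without 2iL replicate 2 (adjusted p = 0.107) or knockout replicate 2 (adjusted p = 0.112). Tcf7 did not pass without 2iL replicate 1 (adjusted p = 0.0627), 2iL replicate 2 (adjusted p = 0.0924) or knockout replicate 1 (adjusted p = 0.165), nor with no filter on low counts (adjusted p = 0.0834) or with only the 4 compared libraries (adjusted p = 0.0636). Sycp1 did not pass without 2iL replicate 1 (adjusted p = 0.282) or knockout replicate 1 (adjusted p = 0.331), nor with only the 4 compared libraries (adjusted p = 0.0768). What lies behind these differences was not tested.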

How the results depend on the processing

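The count of genes passing with DMSO (7348) lay between 6544 and 7679 under other scaling, filters, tools and sample sets, and between 5045 and 6659 with 1 library left out. Asking also for a log2 fold change of 1 left 3781 with DMSO and 3467 with JQ1, where the count without that demand was 7024 and ran from 4850 to 4934 with 1 library left out. With the replicate number as a block 7679 genes passed with DMSO and 7376 with JQ1, and 7439 with DMSO under crossed numbers, an alternative chosen after seeing the data; the numbers share only a name. Of the single genes named, 4215 of 4524 values kept their direction and call, 239 lost the call, 70 gained it and 0 reversed; of 360 list medians 36 moved by more than the spread between libraries. Of 217 list genes that passed, 161 kept direction and call in every alternative other than the demand on size. Depth limits genes with few counts in 1 group, whose fitted values are not sizes.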
